A study of Mus musculus with 4 samples.

Results

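Contractile genes were followed in fibroblasts (FB) and smooth muscle cells (SMC) of the mouse gut, to ask how far the fibroblasts richest in the receptor PDGFRα share the smooth muscle programme in each intestine. The 10 genes, of 28692 in the files, were taken by what they encode: the actins *Acta2*, *Actg2* and *Actc1*, the myosin chains *Myh11* and *Myl9*, the actin binding proteins *Tagln*, *Cnn1*, *Lmod1* and *Synpo2*, and the intermediate filament *Des*. Mesenchymal stromal cells had been sorted from the lamina propria of untreated C57BL6/Nrj female mice aged 8 to 10 weeks, in 2 experiments per intestine with 3 pooled mice each, as live cells without CD45, Ter119, CD31, BP3, EpCAM and L1CAM and with integrin β1. Small intestine and colon each gave 2 droplet libraries (replicates 1 and 2), and the muscularis externa, the outer muscle coat, had been stripped off before digestion. SMC here are thus those left in the mucosa and in any muscle that stayed behind. Each value is a count of unique molecular identifiers (UMIs), 1 per captured mRNA molecule, and levels are UMIs per 1000000 UMIs of the class (CPM).

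Smooth muscle contracts when myosin filaments pull on actin filaments, and myosin does so once its regulatory light chain is phosphorylated by a kinase. Tropomyosin, caldesmon, calponin and transgelin sit on the actin filament, leiomodin starts new filaments, and desmin ties the filaments of a cell together. In the gut wall the enteric γ-actin *Actg2* is the actin of visceral muscle, whereas the α-actin *Acta2* is also made by vascular muscle, pericytes and myofibroblasts. PDGFRαhi FB lie directly beneath the epithelium. Names used for them include subepithelial myofibroblasts and telocytes, and the study calls it unclear whether these are the same cells.

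Cells were gated by 11 markers for PDGFRαhi FB and by 12 for SMC, none of them among the 10 genes. The gate took 91 and 569 PDGFRαhi FB in small intestine replicates 1 and 2, and 377 and 1946 in colon replicates 1 and 2. It took 43 and 114 SMC in small intestine and 226 and 599 in colon. The remaining FB (CD81+ FB and other PDGFRα-low FB, together called other FB) numbered 433, 3710, 346 and 2673 cells in the same order of libraries, which holds for every list of 4 values below. Of all 30697 cells kept, 2983 were PDGFRαhi FB, 7162 other FB, 982 SMC and 236 pericytes, and between 41.9% and 69% of the cells of a library passed no gate.

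PDGFRαhi FB and SMC each held more of their own markers than the other class did. The 11 PDGFRαhi markers summed to between 4016 and 5626 CPM in PDGFRαhi FB and to between 416 and 463 CPM in SMC. The 12 SMC markers summed to 766, 530, 1764 and 773 CPM in PDGFRαhi FB and to 5123, 3333, 6067 and 4049 CPM in SMC. Within each replicate number PDGFRαhi FB held more of these SMC markers in colon, the opposite order to the 10 genes summed below. SMC of the small intestine also held 6146 and 9744 CPM of 4 pan-fibroblast markers, against 2385 and 3046 CPM in colonic SMC. The 7 markers of other PDGFRα-low FB summed to 9200 and 7397 CPM in small intestinal SMC and to 1565 and 1248 CPM in colonic SMC. In small intestinal SMC this was above the SMC markers and near the 9648 and 8503 CPM of other PDGFRα-low FB. Both lists of fibroblast markers were thus higher in the small intestinal SMC sums. Their part in the shares of the SMC level given below was not tested. Colonic PDGFRαhi FB held 5706 and 4367 CPM of the 7 markers, above their own 11 (4873 and 4016 CPM). The markers of endothelium, immune cells, glia, epithelium and mesothelium each summed to 10.3 CPM or less in PDGFRαhi FB, the 10 pericyte markers to 1110, 778, 236 and 210 CPM, and the 3 markers of interstitial cells of Cajal to 182, 62, 117 and 48.4 CPM. Replicates 1 and 2 differed in median depth (6950 and 8810 UMIs per cell in replicate 1 of small intestine and colon, 2735 and 3881 in replicate 2) and in the version of Cell Ranger. Of the cell barcodes, 8 were shared by both replicate 1 libraries, 69 by both replicate 2 libraries and at most 2 by any other pair.

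The 3 actins come from separate genes of similar coding sequence, which is shown here because the finding turns on telling them apart. In mm10 (GRCm38, GENCODE vM21), *Acta2* (ENSMUSG00000035783) is at chr19:34241090-34255590, *Actg2* (ENSMUSG00000059430) at chr6:83512905-83536265 and *Actc1* (ENSMUSG00000068614) at chr2:114047282-114053548, all on the minus strand and all protein-coding. The last 30 coding bases before the stop codon are printed 5′ to 3′, with the bases that differ from *Acta2* in capitals.
Acta2: gggccctccatcgtccaccgcaaatgcttc
Actg2: gggccctccatTgtccacAgGaaatgcttc
Actc1: ggCccAtccatTgtccaccgcaaGtgcttc
*Actg2* differed from *Acta2* at 3 and *Actc1* at 4 of these 30 bases. Over the whole coding sequence, taken as the longest open reading frame and aligned from its 3′ end, 83.8% of the *Actg2* bases and 82.5% of the *Actc1* bases matched *Acta2*. Runs of 50 bases were more distinct. Of all 50-base runs of the transcript, 0.353% in *Acta2*, 0% in *Actg2* and 0% in *Actc1* also occurred in another of the 6 actin genes, and none did within 500 bases of either end.

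PDGFRαhi FB carried part of the muscle set. *Acta2*, *Tagln*, *Myl9*, *Myh11* and *Synpo2* were each higher in PDGFRαhi FB than in other FB in both intestines, whereas *Actg2*, *Actc1*, *Cnn1* and *Lmod1* passed the test in neither. *Des* was higher in the small intestine and lower in the colon. Of the 10 genes, 6 were higher and 0 lower in small intestine, against 12.5% and 16.6% of all 11675 genes tested (29.1% in either direction). In colon 5 were higher and 1 lower, against 13.6% and 15.9% (29.5%). Calls rest on edgeR's quasi-likelihood test with p-values adjusted after Benjamini and Hochberg over all genes and held to 0.05. The median log2 fold change of the 10 genes was 1.94 in either intestine, beside 0.0027 and -0.00064 over all genes. The fit held 12 sums (3 classes in 4 libraries) with library as a block. Its p-values thus measure how far the differences between classes vary from library to library of pooled mice. The study's methods give the 2 libraries of an intestine as separate experiments.

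**Figure D1:**
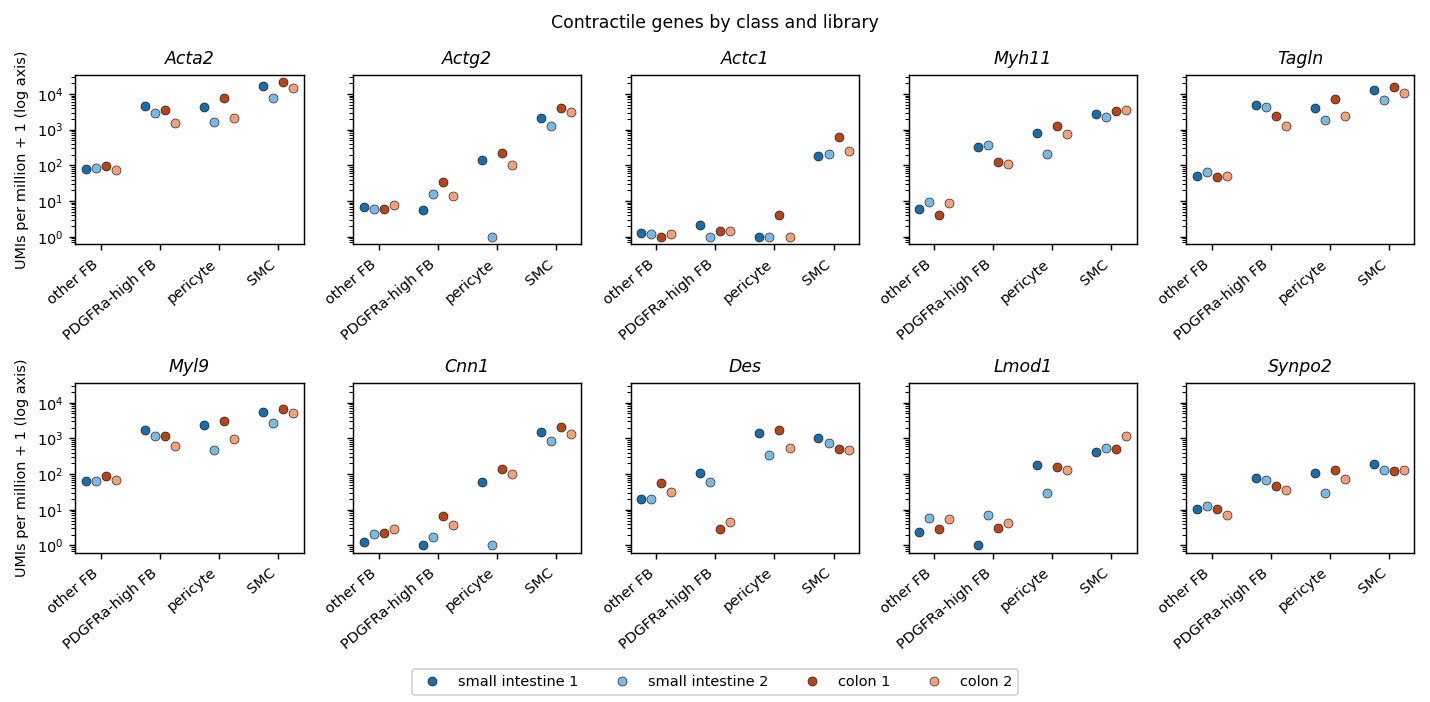
Level of each contractile gene (CPM + 1, log axis) in other FB, PDGFRa-high FB, pericytes and SMC, with 1 point for each of the 4 libraries. In PDGFRa-high FB *Acta2* sits between 1584 and 4555 CPM and *Actg2* between 4.59 and 33.6, while SMC hold more than 1000 of both.

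Among the actins, *Acta2* was at 4555, 2931, 3594 and 1584 CPM in PDGFRαhi FB. In other FB it was at 79.8, 85.5, 96.3 and 74.7 CPM, and in SMC at 16550, 7880, 21281 and 14305 CPM. PDGFRαhi FB thus lay between other FB and SMC in each library and overlapped neither. *Acta2* was 5.03 ± 0.30 log2 units (SE) above other FB in small intestine (edgeR adjusted p = 2.78e-06) and 4.67 ± 0.29 in colon (adjusted p = 3.28e-06). The difference between the intestines in this distance did not pass the test (-0.36 ± 0.36, adjusted p = 0.708).

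*Actg2* was at 4.59, 14.4, 33.6 and 13.2 CPM in PDGFRαhi FB, from 4, 19, 147 and 111 UMIs. Other FB held 5.64, 4.88, 5.05 and 6.61 CPM, and SMC 2181, 1284, 3974 and 3068 CPM. The PDGFRαhi FB of small intestine replicate 1 were below other FB of the same library and those of the remaining 3 libraries above them. The fitted distance from other FB was 0.61 ± 0.77 log2 units in small intestine (edgeR adjusted p = 0.637) and 1.55 ± 0.49 in colon (adjusted p = 0.0658). The colonic value passed with DESeq2 (adjusted p = 0.00288) and with the stricter gate (adjusted p = 0.0271), and stood at 2.58 log2 units (adjusted p = 0.003) without colon replicate 2 and at 1.55 (adjusted p = 0.0279) without small intestine replicate 2. *Actc1*, the α-actin of the heart, gave 1, 0, 2 and 4 UMIs in PDGFRαhi FB and 1, 2, 0 and 2 in other FB, too few for a fold between them, and 178, 203, 603 and 254 CPM in SMC.

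The balance of both smooth muscle actins differed between the classes. There were 7.59, 6.14, 5.36 and 4.66 *Acta2* UMIs for each *Actg2* UMI in SMC. In PDGFRαhi FB there were 993, 204, 107 and 120. The ratio in PDGFRαhi FB was above that of SMC in each library. In pericytes it was 31.5, 33.3 and 20.2 in the 3 libraries with an *Actg2* UMI. *Acta2*, *Tagln* and *Myl9* together made up 95.6%, 94%, 97.1% and 95.4% of the UMIs of the 10 genes in PDGFRαhi FB.

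Of the myosin chains, *Myh11*, the smooth muscle heavy chain (chr16:14194535-14291372, minus strand), was at 332, 380, 123 and 108 CPM in PDGFRαhi FB. Other FB held 4.83, 8.51, 3.16 and 8.02 CPM and SMC 2684, 2294, 3336 and 3515 CPM. *Myh11* stood 5.26 ± 0.28 log2 units above other FB in small intestine (edgeR adjusted p = 4.08e-08) and 4.03 ± 0.28 in colon (adjusted p = 3.02e-07). Both small intestinal values lay above both colonic ones, and the intestinal difference in this distance was -1.23 ± 0.39 (edgeR adjusted p = 0.0935). It passed under the stricter gate (adjusted p = 0.0146), without the low-count filter and without colon replicate 1.

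*Myl9*, the regulatory light chain of smooth muscle (chr2:156775420-156781658, plus strand), was at 1718, 1186, 1139 and 617 CPM in PDGFRαhi FB and at 62.3, 63.8, 87.4 and 65.5 CPM in other FB. SMC held 5434, 2627, 6775 and 5236 CPM. The distance from other FB was 4.07 ± 0.21 log2 units in small intestine (edgeR adjusted p = 6.8e-10) and 3.33 ± 0.20 in colon (adjusted p = 3.4e-09), and the classes overlapped in neither intestine.

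Among the actin binding proteins, *Tagln*, which encodes transgelin (chr9:45929619-45936058, minus strand), was at 5029, 4202, 2475 and 1270 CPM in PDGFRαhi FB. Other FB held 50.5, 62.9, 45.8 and 47.8 CPM and SMC 12850, 6908, 15228 and 10610 CPM. It had the greatest fold over other FB of the 10 genes in both intestines, with 5.91 ± 0.36 log2 units in small intestine (edgeR adjusted p = 1.49e-05) and 5.07 ± 0.35 in colon (adjusted p = 2.51e-05).

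*Synpo2*, which encodes the Z-disc and dense body protein myopodin (chr3:123076519-123236149, minus strand), was at 75.7, 68.1, 45.3 and 35.7 CPM in PDGFRαhi FB, against 9.67, 11.6, 9.47 and 5.99 CPM in other FB and 192, 126, 123 and 128 CPM in SMC. Its distance from other FB was 2.30 ± 0.21 log2 units in small intestine (edgeR adjusted p = 1.54e-08) and 2.34 ± 0.20 in colon (adjusted p = 3.36e-09). The groups did not overlap in either intestine.

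*Cnn1*, which encodes calponin (chr9:22099216-22109630, plus strand), had 0, 1, 25 and 23 UMIs in PDGFRαhi FB. SMC held 1550, 822, 2033 and 1332 CPM. The colonic level was 5.72 and 2.73 CPM in PDGFRαhi FB against 1.26 and 1.94 CPM in other FB, which did not pass the test (0.86 ± 0.42 log2 units, edgeR adjusted p = 0.15). *Lmod1*, which encodes leiomodin (chr1:135324807-135368065, plus strand), had 0, 8, 9 and 27 UMIs in PDGFRαhi FB, or 6.05, 2.06 and 3.2 CPM in the last 3 libraries, against 1.34, 4.88, 1.89 and 4.67 CPM in other FB. Its fitted distance from other FB in colon was -0.52 ± 0.38 log2 units (edgeR adjusted p = 0.351), and SMC held 422, 535, 514 and 1149 CPM. With classes from Leiden clusters *Lmod1* was called lower in colon (-1.44, adjusted p = 1.18e-05). *Cnn1* was called higher in colon without small intestine replicate 1 (0.86, adjusted p = 0.0487) or replicate 2 (0.87, adjusted p = 0.0471).

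The intermediate filament gene *Des* (chr1:75360329-75368579, plus strand) went apart from the rest. It was at 103, 59, 1.83 and 3.68 CPM in PDGFRαhi FB and at 19.1, 19.7, 54.3 and 30.9 CPM in other FB. In small intestine PDGFRαhi FB were above other FB in both libraries, and in colon below them in both. The log2 fold change was 1.57 ± 0.27 in small intestine (edgeR adjusted p = 0.00113) and -3.83 ± 0.32 in colon (adjusted p = 2.89e-06). The difference of -5.40 ± 0.43 passed the test (edgeR adjusted p = 1.77e-05). Of all genes, 2.79% were lower and 4.95% higher in this test (7.74% in either direction), and *Des* was the 1 contractile gene of 10 called. The small intestinal call was lost without small intestine replicate 1 (1.23, adjusted p = 0.0828) and under the stricter gate (1.92, adjusted p = 0.0706). Pericytes, which are rich in desmin, held 1440, 345, 1714 and 542 CPM of *Des*, and their marker sum was higher in small intestinal than in colonic PDGFRαhi FB (values above). That sum was 388, 434, 61.7 and 50.5 CPM in CD81+ FB and 884, 858, 78.9 and 55.4 CPM in other PDGFRα-low FB. It was thus higher in small intestine there too, while *Des* of other FB was lower in small intestine. The part of pericyte RNA in the difference was not tested.

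PDGFRαhi FB stayed below SMC for the contractile genes. In colon all 10 were lower than in SMC, against 16.1% of all genes lower and 17.1% higher (33.2% in either direction). In small intestine 9 of 10 were, against 6.9% lower and 5.76% higher (12.7%). *Tagln* was the exception there (-1.13 ± 0.29 log2 units, edgeR adjusted p = 0.0513), with an adjusted p from 0.000851 to 0.26 over 12 alternatives, 7 of which called it. *Acta2* (-1.73 ± 0.26, adjusted p = 0.00247) lost its small intestinal call with doublets kept (adjusted p = 0.0629) and under the stricter gate (adjusted p = 0.0585), and *Synpo2* (-1.21 ± 0.23, adjusted p = 0.00086) without small intestine replicate 1 (-0.93, adjusted p = 0.129). These contrasts use the same sums of PDGFRαhi FB as those against other FB.

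As a share of the SMC level of the same library, the genes fell into an upper and a lower set. *Tagln* reached 50% ± 15.3 (SD, n = 2) of the SMC level in small intestine, *Synpo2* 46.8% ± 10.3, *Myl9* 38.4% ± 9.59 and *Acta2* 32.4% ± 6.84. In colon *Synpo2* reached 32.4% ± 6.33, *Myl9* 14.3% ± 3.56, *Tagln* 14.1% ± 3.03 and *Acta2* 14% ± 4.11. *Myh11* was intermediate, with 14.5% ± 2.97 in small intestine and 3.38% ± 0.42 in colon, and *Des* was at 8.95% ± 1.29 and 0.561% ± 0.285. *Actg2* was at 0.21%, 1.12%, 0.846% and 0.429% of the SMC level in the 4 libraries, and *Lmod1* at 1.13% or less in each.

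**Figure D2:**
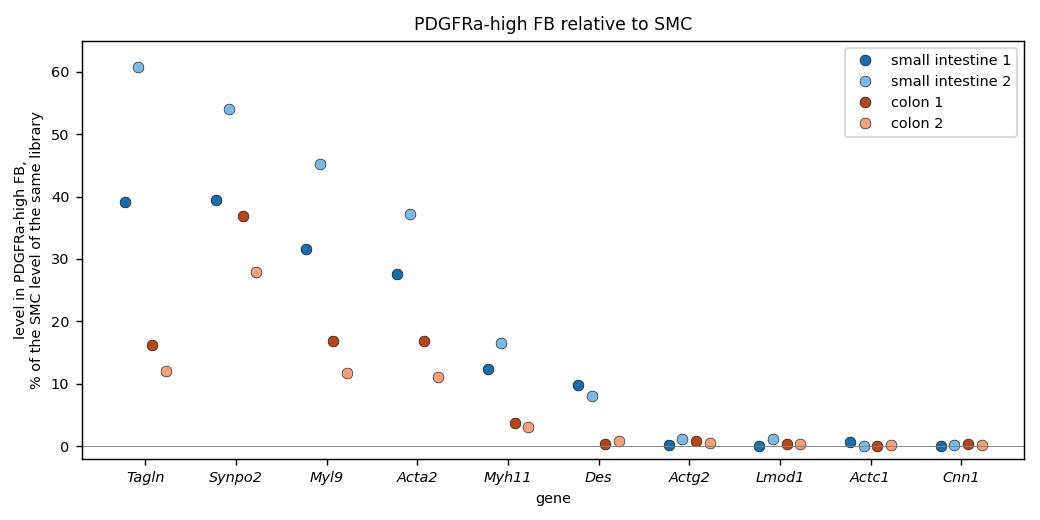
Level of each gene in PDGFRa-high FB as a percent of its level in SMC of the same library (vertical axis), by gene (horizontal axis), with 1 point per library. *Tagln*, *Synpo2*, *Myl9*, *Acta2*, *Myh11* and *Des* have both small intestinal points above both colonic ones, and *Actg2*, *Lmod1*, *Actc1* and *Cnn1* lie at or below 1.13%.

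For genes with 3 UMIs or fewer in PDGFRαhi FB the distance from SMC is given by counting. With 0 UMIs in small intestine replicate 1, a floor of 3 counts put *Cnn1* at least 450-fold lower than in SMC and *Lmod1* at least 123-fold lower. *Cnn1* in small intestine replicate 2 was 1086-fold lower (95% counting interval 195 to 42908, from 1 UMI). *Actc1* was 155-fold lower in small intestine replicate 1 (interval 27.8 to 6127, from 1 UMI), at least 89.4-fold lower in replicate 2, and 1319-fold lower in colon replicate 1 (interval 365 to 10888, from 2 UMIs). These intervals cover counting error only.

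The distance to SMC was larger in colon for 3 of the 10 genes, against 1.61% of all genes lower and 2.55% higher in this test (4.16% in either direction). *Myh11* was 2.88 ± 0.23 log2 units below SMC in small intestine and 4.90 ± 0.24 below in colon, a difference of -2.02 ± 0.31 (edgeR adjusted p = 0.00264). *Myl9* was 1.5 ± 0.19 below in small intestine and 2.84 ± 0.19 below in colon, a difference of -1.34 ± 0.26 (adjusted p = 0.00658). *Des* was 3.55 ± 0.26 and 7.32 ± 0.31 below, a difference of -3.76 ± 0.42 (adjusted p = 0.000377). The *Myh11* and *Myl9* calls were lost with doublets kept (adjusted p = 0.204 and 0.0664), *Myl9* also without colon replicate 2 (adjusted p = 0.0666), *Myh11* with classes from Leiden clusters (adjusted p = 0.147) and *Des* under the stricter gate (adjusted p = 0.105), with the same sign in each. Without the library block neither *Myh11* (adjusted p = 0.221) nor *Myl9* (adjusted p = 0.542) passed. *Tagln* (-1.71 ± 0.41, adjusted p = 0.0793) and *Acta2* (-1.13 ± 0.35, adjusted p = 0.145) had the same sign and missed the threshold. Of 12 alternatives, 5 called *Tagln*, DESeq2 (adjusted p = 0.00283) and edgeR on Leiden clusters (adjusted p = 3.54e-05) among them. For *Acta2* 4 of 12 did, edgeR on Leiden clusters (adjusted p = 0.00298) among them.

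Summed over the 10 genes, PDGFRαhi FB held 27.4% and 37.8% of the SMC level in small intestine and 13.6% and 9.08% in colon. The SMC sums were 43089 and 23412 CPM in small intestine and 54376 and 40080 CPM in colon. The sums in PDGFRαhi FB were 11818 and 8848 CPM in small intestine and 7420 and 3638 CPM in colon, so that within each replicate number PDGFRαhi FB were higher and SMC lower in the small intestine. With classes from Leiden clusters the share was 40.2%, 37.5%, 12.6% and 8.52%. Other FB held between 0.542% and 1.12% of the SMC level.

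Compared directly, with 2 libraries against 2, PDGFRαhi FB of the colon differed from those of the small intestine in 1 of the 7 contractile genes that passed the low-count filter, where 0.946% of all 10777 genes did (0.51% lower and 0.436% higher in colon). *Des* was lower in colon, at -4.64 ± 0.54 log2 units (edgeR adjusted p = 0.0377), and *Actc1*, *Cnn1* and *Lmod1* did not pass the filter. The call was lost without either small intestinal library (adjusted p = 0.0996 without replicate 1 and 0.0683 without replicate 2) and with doublets kept (adjusted p = 0.0658). *Myh11* was at -1.49 ± 0.27 (adjusted p = 0.0925, and 0.00203 with DESeq2), *Tagln* at -1.18 ± 0.39 (adjusted p = 0.32) and *Acta2* at -0.42 ± 0.46 (adjusted p = 0.931). These fits had no replicate block. With the replicate number as a block, edgeR called 5 of the 7 genes (1 higher and 4 lower in colon) and 2136 of all 10777.

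Replicate 1 and replicate 2 libraries had been processed with different versions of Cell Ranger, so the colon was also set against the small intestine within each number. The small intestinal level of *Myh11* was 2.7 times the colonic one in replicate 1 and 3.5 times in replicate 2. *Tagln* gave 2.03 and 3.31, *Myl9* 1.51 and 1.92, *Synpo2* 1.67 and 1.91, *Acta2* 1.27 and 1.85, and *Des* 56.4 and 16.0 times. All 6 were higher in small intestine in both pairs. *Actg2* was 7.33 times higher in colon in replicate 1 and 1.09 times higher in small intestine in replicate 2.

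In SMC the order was the opposite for most of these genes. *Acta2*, *Actg2*, *Actc1*, *Myh11*, *Tagln*, *Myl9*, *Cnn1* and *Lmod1* were higher in colonic SMC in both pairs of libraries, and *Des* was lower in both (1047 and 734 CPM in small intestine, 509 and 483 CPM in colon). Without a replicate block none of the 10 passed edgeR's test in SMC, where 0.723% of all genes did (0.478% lower). There 3 had an unadjusted p under 0.05 and DESeq2 called 0. In other FB 0 of the 8 genes tested passed, against 0.252% of all genes (0.109% higher), 1 had an unadjusted p under 0.05 and DESeq2 called 0. With the replicate number as a block, edgeR called 7 of the 10 in SMC (589 of all 8987 genes) and 1 of the 8 in other FB (1025 of all 11926). No label says that a number marks a shared batch.

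Within PDGFRαhi FB the programme was spread differently in the intestines. Of the cells, 100% (95% Clopper-Pearson interval 96 to 100), 93.1% (90.7 to 95.1), 88.1% (84.4 to 91.2) and 72.1% (70.1 to 74.1) had an *Acta2* UMI. Thinned to 1500 UMIs per cell, which left out 1, 76, 0 and 27 cells, the shares were 92.2%, 93.3%, 78% and 59.2%, so both small intestinal libraries were above both colonic ones. In CD81+ FB, which should lack the gene, 7.42%, 5.7%, 14.7% and 10.3% of cells had an *Acta2* UMI, at median depths of 9198, 3110, 8770 and 4128 UMIs against 9800, 2188, 11496 and 4134 in PDGFRαhi FB.

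The same thinning left *Tagln* in 97.8%, 94.9%, 60.2% and 43% of PDGFRαhi FB and *Myh11* in 42.2%, 39.6%, 14.6% and 12.4%. *Actg2* was in 3.3%, 1.93%, 5.31% and 2.98% of the cells without thinning, against 0.391%, 0.975%, 1.23% and 1.16% of CD81+ FB. *Cnn1* was in 0 of 91 cells of small intestine replicate 1, for which a floor of 3 counts allows up to 3.3% of cells with a UMI (not of cells expressing the gene), and in 0.176%, 1.06% and 0.617% of the cells of the other libraries. *Des* was in 40.7% and 11.1% of small intestinal PDGFRαhi FB but in 1.59% and 1.23% of colonic ones, below the 8.59% and 4.42% of colonic CD81+ FB.

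PDGFRαhi FB were split by their own *Acta2* level into *Acta2*-low cells, at or below the 25th percentile of their library, and *Acta2*-high cells, at or above the 75th. The *Acta2*-low cells held 1289 and 639 CPM of *Acta2* in small intestine and 163 and 0 CPM in colon, values that the split itself sets. In colon *Tagln* was at 98 and 45.7 CPM in *Acta2*-low cells and at 5887 and 3921 CPM in *Acta2*-high cells, and *Myl9* at 202 and 132 against 2334 and 1531 CPM. In small intestine *Tagln* was at 2271 and 1930 CPM in *Acta2*-low cells and at 8553 and 6582 CPM in *Acta2*-high cells.

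*Acta2*-high cells of small intestine replicate 2 came near SMC in *Tagln* (6582 against 6908 CPM), and those of replicate 1 held 8553 against 12850 CPM. *Actg2*, *Cnn1* and *Lmod1* stayed below SMC in *Acta2*-high cells. These cells held 7.66, 39.7, 110 and 48.4 CPM of *Actg2*, 0, 2.84, 21.2 and 7.21 CPM of *Cnn1* and 0, 14.2, 6.2 and 10.8 CPM of *Lmod1*, each below SMC of the same library. The *Acta2*-low cells held 5.4, 0, 0 and 0.419 CPM of *Actg2*, less than *Acta2*-high cells in each library. They held 0, 0, 0 and 0.838 CPM of *Cnn1* and 0, 3.36, 0 and 0 CPM of *Lmod1*. *Des* was at 0.885 and 2.06 CPM in *Acta2*-high cells of the colon and at 3.3 and 4.61 CPM in *Acta2*-low ones. The median *Acta2* level of SMC was reached by 0 of 91, 4 of 569, 0 of 377 and 0 of 1946 PDGFRαhi FB.

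**Figure D3:**
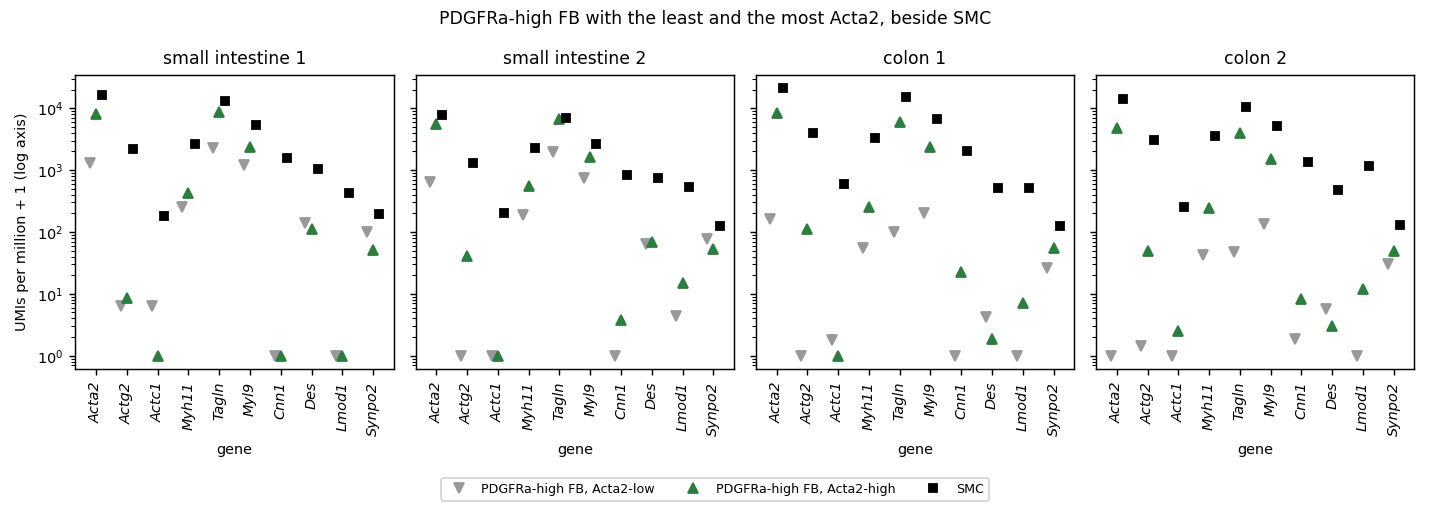
Level of each gene (CPM + 1, log axis) in *Acta2*-low and *Acta2*-high PDGFRa-high FB (bottom and top of the *Acta2* ranking), and in SMC, with 1 panel per library. They are far apart for *Tagln* in colon (98 against 5887 and 45.7 against 3921), while *Acta2*-high cells stay below SMC for *Actg2*, *Cnn1* and *Lmod1* in each panel.

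Clusters were also computed without the 10 genes. Colon replicate 2 had 4 PDGFRαhi clusters with 521, 325, 3343 and 1601 CPM of *Acta2* and 133, 70.7, 3026 and 1227 CPM of *Tagln*, in 785, 538, 1059 and 1009 cells. Colon replicate 1 had 4 clusters with 858, 4108, 3340 and 6525 CPM of *Acta2*. Each small intestinal library had 1 such cluster, with 4709 and 2937 CPM. The study describes colonic subsets by thrombomodulin (*Thbd*, CD141) and *Cd9*. It reports mRNA and protein of αSMA, the product of *Acta2*, only in its CD9loCD141+ subset and, less so, its CD141int subset. PDGFRαhi FB with a *Thbd* UMI and *Cd9* at or below its median held 4617 and 2546 CPM of *Acta2* in colon, and those with no *Thbd* UMI and *Cd9* above its median 377 and 440 CPM. The former were 177 and 701 cells and the latter 45 and 565. *Tagln* was at 3604 and 2279 CPM in the former and at 73.1 and 204 CPM in the latter. In small intestine replicate 2 the same split gave 2931 and 2814 CPM of *Acta2* (298 and 36 cells), and in replicate 1 the latter group held 2 cells.

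Other genes of the contractile machinery were counted by list, against the shares of all genes given above for the same contrasts. Of 13 genes of myosin regulation, 9 were higher and 0 lower in colonic PDGFRαhi FB than in other FB, and 8 higher and 1 lower in small intestine, with medians of 0.69 and 0.61 log2 units. *Mylk*, which encodes the kinase of the light chain, was at 600, 679, 383 and 324 CPM in PDGFRαhi FB, against 2523, 2043, 2474 and 2384 CPM in SMC. It was 3.58 ± 0.16 log2 units above other FB in colon (edgeR adjusted p = 1.54e-13) and 1.93 in small intestine, where other FB held 114 and 141 CPM of it against 27.2 and 25.9 CPM in colon. *Myh9*, the heavy chain of non-muscle myosin, ran the other way against SMC. It was at 547, 703, 411 and 411 CPM in PDGFRαhi FB and at 164, 297, 100 and 168 CPM in SMC, higher by 1.39 log2 units in small intestine (adjusted p = 0.000108) and by 1.62 in colon (adjusted p = 7.73e-07). *Myl12a*, a non-muscle light chain, was higher than in SMC as well, by 1.07 and 0.96 log2 units. *Ppp1r14a*, an inhibitor of the phosphatase of the light chain, was 1.22 ± 0.19 above other FB in colon (adjusted p = 0.000118).

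Of 10 thin filament genes tested, 5 were higher and 0 lower in colonic PDGFRαhi FB than in other FB, and 6 higher and 1 lower in small intestine. The tropomyosins *Tpm1* and *Tpm2* were 1.99 ± 0.16 and 1.93 ± 0.14 log2 units higher in colon. Against SMC, *Tpm1* was lower, at -1.84 log2 units in small intestine and -2.04 in colon. *Cald1*, which encodes caldesmon, was at 2241, 3021, 1251 and 1815 CPM in PDGFRαhi FB and at 1208, 1430, 1398 and 2271 CPM in SMC. It was higher than in SMC in small intestine (0.92 log2 units, edgeR adjusted p = 6.45e-05), and in colon the difference of -0.26 did not pass (adjusted p = 0.156). *Cnn2*, the calponin that non-muscle cells also make, was 2.03 ± 0.15 above other FB in colon (adjusted p = 5.53e-10), and its -0.29 against SMC did not pass (adjusted p = 0.141).

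Of 15 genes of adhesion and dense plaques, 9 were higher and 3 lower in colonic PDGFRαhi FB than in other FB, and 9 higher and 1 lower in small intestine. The integrin *Itga1* and the α-actinin *Actn1* were 2.51 ± 0.20 and 1.98 ± 0.13 log2 units higher in colon, and *Csrp1*, a LIM protein of smooth muscle, 1.57 ± 0.15. *Fhl2*, another LIM protein, was at 395, 335, 559 and 408 CPM in PDGFRαhi FB and at 230, 276, 183 and 173 CPM in SMC, above SMC in colon by 1.41 log2 units (edgeR adjusted p = 1.63e-07). Of the 2 other actins tested, 1 was higher and 0 lower in either intestine. *Actb*, cytoplasmic β-actin, was 0.60 ± 0.13 above other FB in colon (adjusted p = 0.000713).

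The list of 8 transcription genes was mixed, with 2 higher and 2 lower in colon and 3 higher and 1 lower in small intestine. *Myocd*, which encodes myocardin, the cofactor that switches on smooth muscle genes, was at 0, 0.757, 0.686 and 0.356 CPM in PDGFRαhi FB and at 164, 119, 112 and 101 CPM in SMC. Its level in other FB was 2.42, 3.81, 5.37 and 2.11 CPM, above that of PDGFRαhi FB in each library. The forkhead genes *Foxf1* and *Foxf2*, active in gut mesenchyme, were 1.42 ± 0.13 and 2.04 ± 0.15 log2 units above other FB in colon, and *Nr2f2* was lower, at -1.59 ± 0.26 (edgeR adjusted p = 0.000422). Against colonic SMC the lists of myosin regulation, thin filament, adhesion and transcription had 5, 3, 1 and 0 genes higher and 6, 5, 12 and 4 lower.

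By Pearson correlation of log2(CPM + 1) over 20 sums (FB classes, SMC and pericytes in 4 libraries) and 6318 genes with a mean of at least 20 CPM, from which the 10 genes and the gate markers were left out, the genes most like *Acta2* were *Tpm1* (r = 0.971), *Itgb1* (r = 0.964) and *Vcl* (r = 0.964). Those most like *Myh11* were *Tpm2* (r = 0.969), *Tpm1* (r = 0.969) and *Vcl* (r = 0.961). The sums share libraries and depth, and the values are a description.

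Promoters were read because smooth muscle genes are known targets of serum response factor, which binds the CArG box. RefSeq windows (GRCm38.p6, 250 bases before to 50 after the start) matched 7 of the 10 genes, and a CArG box in its exact form, with no mismatch allowed and searched on both strands of this palindromic motif, was in 2 of these 7 against 1.63% of all 32851 windows. The RefSeq start of *Actc1* used here lies inside the GENCODE gene span printed above. The 30 bases around each box are printed 5′ to 3′ on the gene's strand, with the box in capitals, for *Actc1* at chr2:114052903-114052932 (minus strand, box beginning 47 bases before the RefSeq start) and *Myl9* at chr2:156775293-156775322 (plus strand, 161 bases before).
Actc1: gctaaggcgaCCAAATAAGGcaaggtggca
Myl9: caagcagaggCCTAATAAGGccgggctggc
*Myl9* was among the genes shared with SMC and *Actc1* was not; the windows of *Acta2*, *Cnn1*, *Des*, *Lmod1* and *Synpo2* held no exact match, and boxes with a mismatch were not searched.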

How the data were processed

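Libraries came from 3′ v3 or 5′ kits, and the kit of each library is not given in the sources used here. Cell Ranger, run by the authors on mm10 (version 3.0.2 for replicate 1 and 3.1.0 for replicate 2, per the file headers), gave the deposited UMI counts, which carry no normalization and sum to 14341443, 45640122, 22076000 and 52269372 per library (small intestine 1 and 2, colon 1 and 2), of which PDGFRαhi FB hold 871522 to 8425351 and SMC 285916 to 1931939. Deeper sums give smaller counting error.

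Barcodes with at least 500 genes, 1000 UMIs and at most 10% mitochondrial UMIs were kept, and scrublet scores (scanpy 1.11.5) over 0.2 were removed as doublets (26, 913, 45 and 535 barcodes), a limit set after the automatic threshold had marked 1 barcode of small intestine replicate 2. A cell took the class with the highest mean z-scored marker level, by a margin of 0.4 and with at least 4 markers of PDGFRαhi FB, SMC or pericytes (3 for other classes). These numbers were set after levels had been seen. Within 0.1 of the margin, 305 PDGFRαhi FB lay inside and 284 cells outside. The genes and lists were chosen with earlier results of these data known.

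UMIs were summed per library and class and tested with the quasi-likelihood fit of edgeR 4.0.16 in R 4.3.3 (filterByExpr, TMM, robust), without the gate markers. Library was the block of the class contrasts, since classes of a library come from the same mice and droplets. Colon against small intestine was fitted on 4 sums, without a block. On simulated sums for PDGFRαhi FB against other FB in colon (11289 genes, 200 changed), 83.7% of genes changed by 1 log2 unit and 94.7% of those changed by 2 were recovered. In the same run 31 unchanged genes were also called. Named genes were the 10 and, per list, at most 4 with the largest change called in PDGFRαhi FB against other FB in colon, with the same direction in both libraries. Alternatives comprised DESeq2 1.42.0, RLE normalization, no low-count filter, doublets kept, a stricter gate (margin 0.6, 5 markers), Leiden clusters, 1000 genes per cell, each library left out and the block. Clusters were computed at resolution 1 from 30 components over 2000 variable genes without the 10 genes.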

Additional observations from a re-analysis of the deposited data

Results flagged for a closer look

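The following 4 values differed between the intestines by the test of the difference itself (edgeR quasi-likelihood test, class by intestine term), each colon minus small intestine in log2 units. *Des* in PDGFRαhi FB stood at -5.40 against other FB and at -3.76 against SMC. *Myh11* against SMC stood at -2.02, and *Myl9* at -1.34. The cause of these differences was not tested.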

How the results depend on the processing

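Of 900 recomputed values of single contractile genes, 802 kept direction and side of the threshold, 49 passed it anew, 15 lost it and 34 changed sign, none of these a called value. The 5 genes *Acta2*, *Tagln*, *Myl9*, *Myh11* and *Synpo2* above other FB kept their calls in both intestines under each alternative run. Counts of called genes over all genes moved by over 1.5 times as follows. DESeq2 gave 2299 for PDGFRαhi FB against other FB in colon (3449 with edgeR), 548 for the difference between the intestines (904), and 409, 319 and 143 for colon against small intestine in PDGFRαhi FB, other FB and SMC (102, 30 and 65). Without the low-count filter these last 3 were 731, 329 and 181, and the difference against SMC was 778 (486). Leiden clusters gave 1414 and 1034 for the differences against other FB and SMC, and 160 and 242 for colon against small intestine in PDGFRαhi FB and SMC. With doublets kept these were 63 and 42. Leaving out a library gave 2168 to 3296 genes against other FB in small intestine, 1821 to 3796 in colon and 462 to 822 for the difference. Against SMC it gave 667 to 1425, 2396 to 4157 and 286 to 433, and for colon against small intestine 0 to 342, 0 to 158 and 28 to 173 in PDGFRαhi FB, other FB and SMC. Such fits assume that a lone library varies like the other groups. Cells with an *Acta2* UMI in colon went from 80.1% to 68.6% on thinning. The cause of these shifts was not tested.

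Without the library block the class contrasts called 1115, 1023 and 40 genes against other FB (small intestine, colon, difference) and 692, 1370 and 37 against SMC. With the replicate block, colon against small intestine called 2136 genes in PDGFRαhi FB, 1025 in other FB and 589 in SMC, with *Actg2*, *Myh11*, *Tagln*, *Synpo2* and *Des* among them in PDGFRαhi FB. In SMC it called 7 of the 10 contractile genes, with *Acta2*, *Actg2*, *Actc1*, *Myl9*, *Cnn1* and *Lmod1* higher and *Des* lower in colon (adjusted p from 0.000925 to 0.0486), and in other FB it called *Des* (0.92 log2 units, adjusted p = 0.0273). Deviations of same-numbered libraries correlated at 0.688, 0.695 and 0.52 in these classes, from 2 pairs, and no label says that a number marks a shared batch.

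Values that changed sign are given in log2 units. *Actg2* against other FB in small intestine gave -0.75 to 1.21 with a library left out. *Lmod1* against other FB in small intestine gave 0.18 (stricter gate). *Lmod1* against other FB in colon gave 0.27 (stricter gate). *Acta2* in the difference against other FB gave -0.74 to 0.030 with a library left out. *Lmod1* in the difference against other FB gave 0.073 (doublets kept), 0.089 (stricter gate) and -0.49 to 5.13 with a library left out. *Synpo2* in the difference against other FB gave -0.016 (DESeq2), -0.073 (no library block) and -0.20 to 0.16 with a library left out. *Actg2* in the difference against SMC gave -0.0025 (stricter gate), -0.049 (at least 1000 genes per cell) and -0.83 to 1.63 with a library left out. *Lmod1* in the difference against SMC gave -1.82 to 5.25 with a library left out. *Acta2* in colon against small intestine in PDGFRαhi FB gave -1.01 to 0.030 with a library left out. *Acta2* in colon against small intestine in other FB gave 0.059 (doublets kept), 0.53 (Leiden clusters) and -0.21 to 0.049 with a library left out. *Actg2* in colon against small intestine in other FB gave -0.22 to 0.28 with a library left out. *Myh11* in colon against small intestine in other FB gave 0.11 (doublets kept) and -1.27 to 0.17 with a library left out. *Tagln* in colon against small intestine in other FB gave 0.24 (Leiden clusters). *Myl9* in colon against small intestine in other FB gave -0.011 to 0.30 with a library left out. *Lmod1* in colon against small intestine in other FB gave 0.42 (doublets kept), 0.086 (at least 1000 genes per cell), 0.54 (Leiden clusters) and -0.95 to 1.20 with a library left out. *Synpo2* in colon against small intestine in SMC gave -0.57 to 0.035 with a library left out.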
